A study of Mus musculus with 39 samples.

Results

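The genes described here encode a pair of growth factor systems that act on satellite cells, the stem cells of skeletal muscle: hepatocyte growth factor and its receptor, and the fibroblast growth factors and theirs. They are 10 of the 55011 genes in the deposited count table, taken by symbol: the ligands Hgf, Fgf2, Fgf6 and Fgf7, the receptors Met, Fgfr1 and Fgfr4, the coreceptor Sdc4 and the feedback inhibitors Spry1 and Spry2. Each was read in 33 of the 39 libraries, which fall into 12 groups.

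The muscle was mouse tibialis anterior after injury of the hindlimb with cardiotoxin, a snake venom protein that destroys myofibres. In the time course, wild-type mice and Tcrd-DTR mice, in which diphtheria toxin depletes γδ T cells, both received the toxin by the i.p. route. Whole muscle was taken at 1, 3, 7 and 14 days, with 3 libraries of each genotype and day except Tcrd-DTR at day 7, which has 2. In a second experiment without the toxin, wild-type mice received either PBS or recombinant IL-17A, i.p. and i.m. Whole muscle was taken at day 7, with 2 libraries of each treatment. Satellite cells were sorted at day 1 from toxin-treated wild-type and Tcrd-DTR mice, 1000 cells a library and 3 libraries of each genotype. Every group thus carries the injury, and the toxin is common to both genotypes. The series describes replicates as independent and biological. The sources used here give no age or sex, no marker of the satellite cell sort and nothing on pooling of mice, and no uninjured muscle was analysed here.

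HGF is stored in the muscle matrix as an inactive precursor, which proteases such as the urokinase encoded by Plau and the HGF activator encoded by Hgfac cleave, and active HGF binds the tyrosine kinase MET on satellite cells and brings them out of quiescence. FGFs need heparan sulfate to bind their receptor kinases firmly, which syndecan-4, the protein of Sdc4, carries at the cell surface. FGF2 and FGF6 are known as mitogens of myogenic cells, whereas FGF7 is a product of stromal cells that acts mainly on epithelium. Both receptor classes signal through the ERK kinase cascade, which induces the Sprouty proteins, and Sprouty in turn damps the cascade. SPRY1 is known for its part in the return of cycling satellite cells to quiescence.

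On the GRCm38 build (GENCODE M21), Hgf lies at chr5:16553495-16620152 and Met at chr6:17463800-17573980. Fgf2 lies at chr3:37348346-37410108, Fgf6 at chr6:127015586-127028187 and Fgf7 at chr2:126034658-126091185. Fgfr1 lies at chr8:25513654-25575718 and Fgfr4 at chr13:55152640-55168759. Spry1 lies at chr3:37639947-37644598, Spry2 at chr14:105891947-105896819 on the minus strand and Sdc4 at chr2:164424247-164443887 on the minus strand, the other members being on the plus strand. Spry1 and Fgf2 are thus near each other on chromosome 3. Fgf2 shares 640 exonic bases with the antisense gene Nudt6, Fgfr1 shares 164 with Gm16159, Spry1 shares 710 with Gm42922 and Hgf shares 484 with Gm43489. Nudt6 held 802 counts in the 33 libraries, more than Fgf2 in several groups, and no source used here gives the strand setting of the counting, so values of Fgf2 are uncertain. The other overlapping genes held 344 (Gm16159), 20 (Gm42922) and 19 (Gm43489) counts.

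The sequences below are the 250 bases before the RefSeq transcript start (GRCm38.p6) of 4 members: Hgf and Spry2, which had the largest changes between days, Fgf6, which was nearly absent from satellite cells, and Spry1, the relative of Spry2. Capitals mark E-boxes (CANNTG, a palindromic motif searched on both strands at once), the motif class that the myogenic factors MYOD and MYF5 bind. They are written 5′ to 3′ on the strand of the gene.
Hgf, chr5:16553245-16553494, plus strand: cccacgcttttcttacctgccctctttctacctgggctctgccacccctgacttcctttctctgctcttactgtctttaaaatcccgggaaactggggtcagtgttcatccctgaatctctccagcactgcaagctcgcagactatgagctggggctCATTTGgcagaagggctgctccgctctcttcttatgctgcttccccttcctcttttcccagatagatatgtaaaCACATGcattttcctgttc
Fgf6, chr6:127015292-127015541, plus strand: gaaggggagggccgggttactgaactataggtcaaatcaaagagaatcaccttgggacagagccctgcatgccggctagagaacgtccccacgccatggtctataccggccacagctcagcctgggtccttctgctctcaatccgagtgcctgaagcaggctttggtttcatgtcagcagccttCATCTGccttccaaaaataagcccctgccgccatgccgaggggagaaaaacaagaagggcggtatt
Spry1, chr3:37639697-37639946, plus strand: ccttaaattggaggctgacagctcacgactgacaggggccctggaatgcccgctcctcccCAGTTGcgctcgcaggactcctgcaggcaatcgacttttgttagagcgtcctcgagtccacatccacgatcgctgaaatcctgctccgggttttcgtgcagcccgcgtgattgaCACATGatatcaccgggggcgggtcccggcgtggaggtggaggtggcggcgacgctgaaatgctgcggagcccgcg
Spry2, chr14:105896820-105897069, minus strand: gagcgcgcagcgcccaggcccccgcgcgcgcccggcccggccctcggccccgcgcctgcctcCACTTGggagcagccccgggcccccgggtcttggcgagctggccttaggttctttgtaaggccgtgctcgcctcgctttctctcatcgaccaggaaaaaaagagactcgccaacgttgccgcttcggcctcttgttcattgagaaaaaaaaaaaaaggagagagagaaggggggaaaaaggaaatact

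Hgf has CATTTG 93 bases and CACATG 19 bases before the start, and Spry1 has CAGTTG at 190 and CACATG at 76 bases. Fgf6 has CATCTG at 66 bases and Spry2 has CACTTG at 188 bases. Hgf has a second RefSeq promoter, not printed, at chr5:16553651-16553900, which holds no E-box. RefSeq promoters were matched for 9 of the 10 members, and 7 of their 10 promoters hold an E-box in such a window. Of all 32851 promoters in the table, 66.2% hold one, so the members' share is near that of promoters at large. The MCAT motif CATTCC, bound by TEAD factors and searched on both strands, is in 12.6% of promoters and, of the windows printed, in that of Spry1, 208 bases before the start.

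Libraries held 2372139 to 10974862 counts, and levels are given as CPM, the counts scaled to a common library total. Depth ran with day: time-course libraries held 7031474 to 10974862 counts at day 7 and 2372139 to 4877576 at day 14. Between 16951 and 35394 genes had a count in a library. Changes are log2 differences with their standard errors (SE) from edgeR's quasi-likelihood test with TMM scaling and Benjamini-Hochberg adjustment over all genes tested, and a gene is called at an adjusted p under 0.05. Scaling by library total alone, instead of TMM, moved the median log2 difference of all genes in the wild-type step from day 3 to day 7 from 0.04 to −0.74, and in the Tcrd-DTR step from −0.22 to −1.19. It moved the median of all genes from 0.00 to 0.40 in the wild-type step from day 1 to day 3, from 0.02 to 0.40 in the Tcrd-DTR step from day 7 to day 14, and from −0.02 to −0.25 in the comparison of genotypes at day 7. Raw CPM carry those shifts. Whole-muscle replicate 2 of Tcrd-DTR at day 1 held the most genes with a count, 35394. Its TMM factor in the time-course fit was 1.413, against 1.017 and 1.03 in the other libraries of its group. The sorted cells had summed CPM of the 7 satellite cell markers, Pax7 among them, of 4172 to 6011, against 316 to 459 in day 1 muscle, and each sorted library held all 7. They also held the 8 markers of fibro-adipogenic progenitors, such as Dcn, at 5041 to 6352 summed CPM in wild-type and 5921 to 8270 in Tcrd-DTR libraries, while macrophage markers came to 10.1 to 18.8 and C1qa was at 0. The labelled cell type is therefore present beside stromal transcripts. One Tcrd-DTR sorted library, replicate 1, stood apart, with 2797 CPM of myofibre markers against 26.1 to 34.6 in the other sorted libraries.

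Satellite cells were set against day 1 whole muscle of the same genotype to see which side of each signal they carry. The labels do not say whether the sorted cells and the muscle came from the same mice. All 3 receptors, the coreceptor and both Sprouty genes were higher in wild-type satellite cells than in whole muscle, Fgf6 and Fgf7 were lower, and Hgf and Fgf2 did not pass the test. That is 8 of 10 members called, 6 higher and 2 lower, where 58.5% of the 14562 genes tested were called, 26.9% higher and 31.6% lower. The median log2 difference was 2.00 over the members and −0.08 over all genes tested. Markers of fibro-adipogenic progenitors (5041 to 6352 against 2867 to 3472 summed CPM) and of smooth muscle and pericytes (398 to 644 against 248 to 338 summed CPM) were also higher in these sorted libraries than in day 1 wild-type muscle, and their part in the differences was not tested. Sorted cells and whole tissue differ in cell number, dissociation and input, and these cannot be told apart from cell type here. In whole muscle, fewer cells of a type and less RNA per cell cannot be told apart either.

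Fgfr4, a receptor known to be enriched in myogenic cells, read 90.7, 88.7 and 156 CPM in wild-type satellite cells and 2.26, 4.17 and 0.871 CPM in wild-type muscle. No muscle library came near the sorted ones, and the difference was 36.2-fold (log2 5.18 ± 0.38 SE, adjusted p = 9.91e-09). Met read 173, 172 and 128 CPM in the sorted cells against 13.8, 18.8 and 18.5 CPM in muscle, a 7.22-fold difference (log2 2.85 ± 0.18 SE, adjusted p = 2.06e-09). Fgfr1 read 557, 594 and 683 CPM against 72.6, 46.9 and 60.5 CPM, a 7.90-fold difference (log2 2.98 ± 0.22 SE, adjusted p = 8.05e-09). All 3 receptors were thus higher in 3 of 3 sorted libraries, with no overlap. Sdc4, the heparan sulfate carrier, read 3615, 3495 and 3625 CPM in the sorted cells and 220, 200 and 184 CPM in muscle, a 13.8-fold difference (log2 3.79 ± 0.21 SE, adjusted p = 3.46e-10).

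The feedback inhibitors were also higher in the cells. Spry1 read 44.2, 41.5 and 39.6 CPM against 5.41, 4.87 and 8.02 CPM in muscle (5.31-fold, log2 2.41 ± 0.27 SE, adjusted p = 7.95e-07). Spry2 read 125, 117 and 65.9 CPM against 14.7, 32.3 and 32.2 CPM (3.02-fold, log2 1.60 ± 0.31 SE, adjusted p = 0.000453). The lowest sorted library of Spry2 was still above the highest muscle library.

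The ligands showed the opposite pattern or none. Fgf6, known as an FGF of skeletal muscle, had 1, 1 and 0 counts in the sorted wild-type libraries, the library at 0 allowing up to 0.598 CPM, against 6.09, 4.00 and 7.49 CPM in muscle. Per total count, muscle held 45.9 times as much, 93 counts against 2, with a 95% exact binomial interval of 12.4 to 385 that covers counting error only (adjusted p = 0.00882). Fgf7 read 1.46, 0 and 1.195 CPM in the cells against 7.67, 6.43 and 8.54 CPM in muscle, a 10.6-fold lower level (log2 −3.41 ± 0.61 SE, adjusted p = 0.000123). Hgf read 1.10, 2.48 and 0.398 CPM in the cells and 3.16, 0.869 and 1.74 CPM in muscle, ranges that overlap (log2 −0.89 ± 0.67 SE, adjusted p = 0.267). Fgf2 read 3.84, 3.06 and 3.19 CPM in the cells and 1.805, 1.56 and 3.485 CPM in muscle (log2 0.19 ± 0.47 SE, adjusted p = 0.754).

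**Figure D1:**
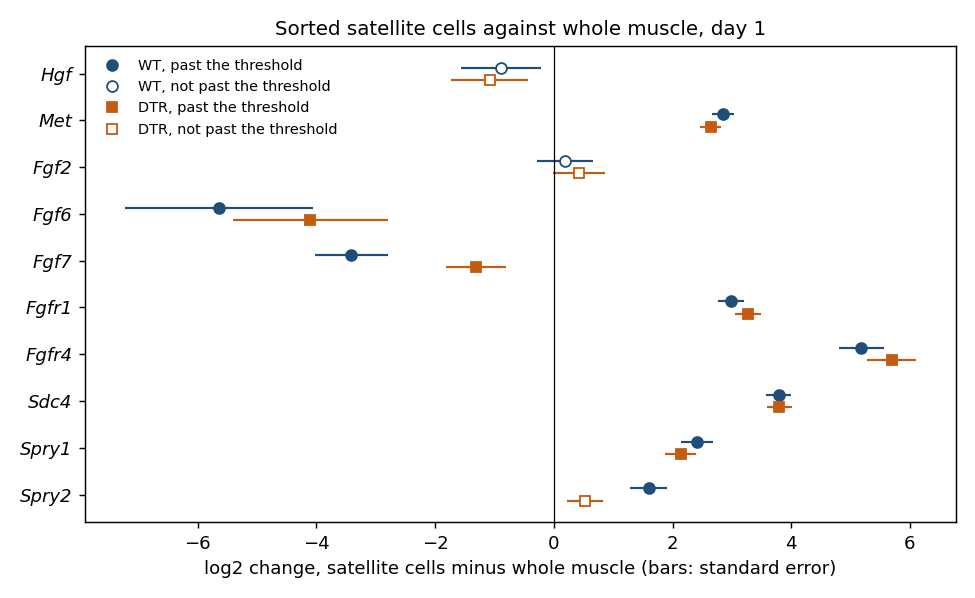
Log2 difference between satellite cells and day 1 whole muscle for each of the 10 genes, wild-type and Tcrd-DTR mice, with SE bars; positive values are higher in satellite cells, filled symbols are called and open symbols are not. Fgfr4, Sdc4, Fgfr1, Met and Spry1 lie above 2 in both genotypes and Fgf6 and Fgf7 lie below 0.

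In Tcrd-DTR mice the same comparison called 7 of the 10 members, 5 higher and 2 lower, where 56.9% of genes tested were called, 25.8% higher and 31.1% lower. Fgfr4 (log2 5.69 ± 0.41 SE), Sdc4 (3.80 ± 0.21), Fgfr1 (3.27 ± 0.22), Met (2.64 ± 0.18) and Spry1 (2.14 ± 0.26) were higher in the cells. Spry2 was not called (log2 0.53 ± 0.30 SE, adjusted p = 0.15). Its muscle libraries read 31.1, 88.6 and 37.8 CPM and the cells 78.3, 93.7 and 96.8 CPM, and without muscle replicate 2, the one at 88.6 CPM, the log2 difference was 1.00 (adjusted p = 0.0104). Fgf6 was called lower (log2 −4.10 ± 1.31 SE, adjusted p = 0.0175), but its muscle libraries read 16.0, 0.264 and 1.89 CPM, and without the first of these the adjusted p was 0.265. All 8 Fgf6 counts of the sorted Tcrd-DTR cells came from the library with the high myofibre markers, and their part in the result was not tested. The call of Fgf6 was also lost without sorted replicate 2 (adjusted p = 0.0617) or replicate 3 (adjusted p = 0.0594). Fgf7 was called lower (log2 −1.31 ± 0.51 SE, adjusted p = 0.0343) and its call was lost when muscle replicate 2 (adjusted p = 0.0907) or 3 (0.0796) or sorted replicate 2 (0.133) or 3 (0.0912) was left out.

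Per kilobase of exon, which allows genes to be set beside each other, wild-type satellite cells held Sdc4 at 1405 CPM per kb, far above Fgfr1 at 61.9, Spry2 at 49.2, Fgfr4 at 31.6, Met at 20.6 and Spry1 at 14.4 CPM per kb. The ligands lay at 0.496 (Fgf2), 0.273 (Fgf7), 0.185 (Hgf) and 0.0268 (Fgf6) CPM per kb. In these sorted cells every receptor, the coreceptor and both inhibitors thus had a higher level per kilobase than any of the 4 ligands.

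**Figure D2:**
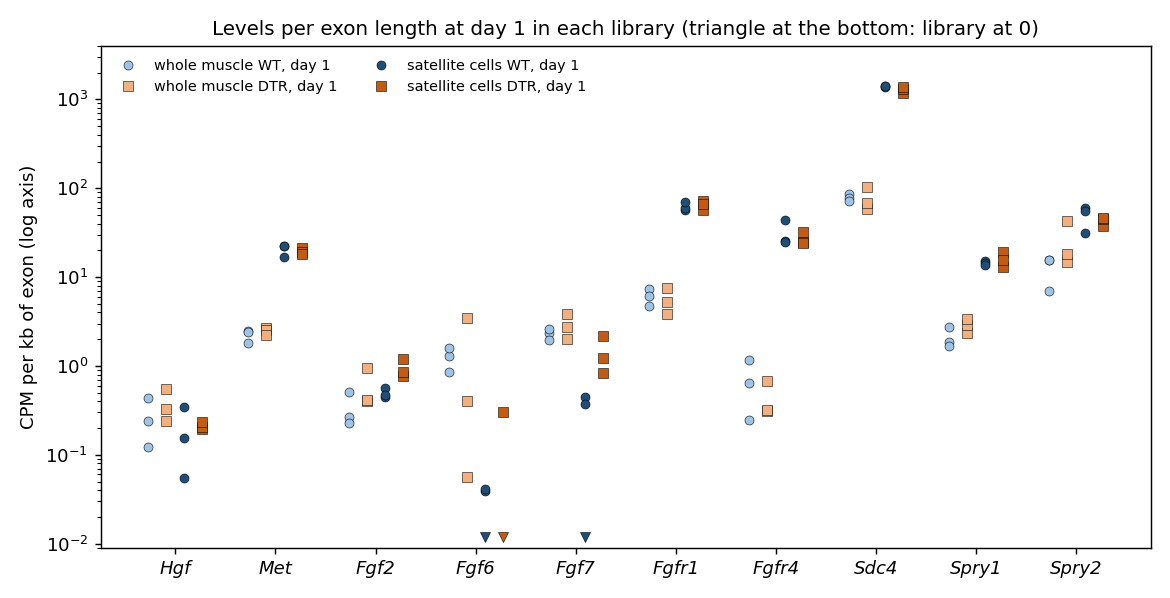
Level of each gene in CPM per kilobase of exon (log axis) in each library of day 1 whole muscle and sorted satellite cells, wild-type (WT) and Tcrd-DTR (DTR); triangles mark groups with a library at 0. Sdc4 stands highest in satellite cells, at 1405 CPM per kb in wild-type, and the 4 ligands lowest, between 0.0268 and 0.496 CPM per kb.

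Other genes of the pathway were read from lists drawn up for this comparison, to be read against the 58.5% of all genes tested that were called here, 26.9% higher and 31.6% lower. Of 21 heparan sulfate proteoglycans and enzymes tested in wild-type mice, 12 were higher in satellite cells and 4 lower, among them the sulfotransferase gene Hs6st2 (log2 5.32, adjusted p = 6.23e-08), the sulfatase gene Sulf1 (log2 3.41, adjusted p = 1.56e-09) and Sdc1, another syndecan (log2 3.26, adjusted p = 7.3e-09). Sdc3 was lower in the cells (52.2 against 82.4 CPM, adjusted p = 0.00102). Of 8 genes of HGF activation and its inhibitors, 4 were higher and 4 lower, with Plau at 427 against 37.5 CPM (log2 3.16, adjusted p = 4.31e-06) and its receptor gene Plaur at log2 2.36. Of 17 genes of ERK feedback and targets, 7 were higher and 2 lower, including Myc (log2 2.72), Ccnd1 (log2 2.60), Etv4 (log2 2.39), Il17rd (log2 1.92) and Etv5 (log2 1.00). Dusp6 (log2 0.18, adjusted p = 0.526) and Spry4 (log2 0.42, adjusted p = 0.306) were not called. Of 8 other FGF ligands and binding proteins none was higher and 5 were lower, with Fgf9 at 0.125 against 6.49 CPM, Fgf13 at 5.75 against 26.4 CPM and Fgf1 at 3.26 against 11.2 CPM. Neither Fgfr2 (log2 −0.21, adjusted p = 0.729) nor Fgfr3 (log2 0.21, adjusted p = 0.631) was called.

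Over the time course, the question was how the signals change from injury to repair. In wild-type muscle 7 of the 10 members changed with day, where 53.7% of the 18264 genes tested did: Sdc4 (adjusted p = 3.06e-10), Spry2 (3.5e-09), Spry1 (0.00014), Hgf (0.0013), Fgfr4 (0.00324), Fgf7 (0.00713) and Met (0.00902). Fgfr1 (adjusted p = 0.078), Fgf2 (0.391) and Fgf6 (0.4) were not called. In Tcrd-DTR muscle 6 of 10 changed, where 56.2% of genes tested did, and these were the wild-type 7 without Spry1 (adjusted p = 0.471). From one day to the next in wild-type, 2 members were called from day 1 to 3 (18.9% of genes tested), 4 from day 3 to 7 (36.9%) and 4 from day 7 to 14 (17.3%). In Tcrd-DTR the counts were 2 (14.3%), 3 (35.5%) and 2 (34.4%). Except for the last wild-type step, where the share of members is higher, and the last Tcrd-DTR step, where it is lower, the counts are near those shares.

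Hgf was highest at day 3 and lowest at day 7. In wild-type muscle it read 3.16, 0.869 and 1.74 CPM at day 1, 14.9, 9.59 and 2.79 CPM at day 3, 0.142, 0 and 1.32 CPM at day 7, and 1.75, 2.45 and 4.55 CPM at day 14. The fall from day 3 to day 7 was called (log2 −3.49 ± 0.77 SE, adjusted p = 0.000369), resting on 147 against 11 counts over the 3 libraries. At day 7 one wild-type library held no Hgf count, which allows up to 0.322 CPM. Tcrd-DTR muscle read 14.1, 8.36 and 7.58 CPM at day 3 and 0 and 0.456 CPM at day 7 (log2 −4.34 ± 0.96 SE, adjusted p = 0.000467), the library at 0 allowing up to 0.314 CPM. Tcrd-DTR muscle read 2.36, 3.97 and 1.70 CPM at day 1 and 1.05, 1.69 and 2.255 CPM at day 14. Both genotypes thus showed the same high and low days in mean CPM, with no overlap between day 3 and day 7. In wild-type, day 3 overlapped days 1 and 14 in CPM. The step to day 3 was called in neither genotype. In wild-type its log2 difference was 1.85 ± 0.69 SE (adjusted p = 0.0555), and it passed without day 1 replicate 1 (adjusted p = 0.0436) and without day 3 replicate 3 (adjusted p = 0.022). The rise from day 7 to 14 in wild-type (log2 2.51 ± 0.81 SE, adjusted p = 0.0275) was lost without day 7 replicate 1 (adjusted p = 0.109) or 2 (0.128) or day 14 replicate 3 (0.143). In Tcrd-DTR that step was not called (log2 2.44 ± 1.02 SE, adjusted p = 0.0597), and passed without day 7 replicate 2 (adjusted p = 0.0336).

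The macrophage markers were also highest at day 3 in wild-type, with summed CPM of 8302 to 13820, and fell to 435 to 699 at day 7. At day 1 they summed to 1104 to 2434 CPM, between days 3 and 7, where the mean of Hgf also lay. At day 14 they were at 129 to 160 CPM, below day 7, whereas Hgf was above its day 7 level. Their part in the change of Hgf was not tested. Plau and Plaur, of the protease system that activates HGF, fell over the same step in wild-type (log2 −3.30, adjusted p = 1.38e-09, and log2 −3.06, adjusted p = 8.32e-10).

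Met, the receptor of HGF, followed a shallower course with its highest level on the same day. In wild-type it read 13.8, 18.8 and 18.5 CPM at day 1, 30.0, 46.8 and 36.0 CPM at day 3, 12.9, 11.5 and 11.2 CPM at day 7, and 13.01, 11.4 and 10.6 CPM at day 14. All 3 day 3 libraries were above all others of the genotype. The fall to day 7 was called (log2 −0.85 ± 0.28 SE, adjusted p = 0.015) and was lost without day 3 replicate 2 (adjusted p = 0.0813), as was the change over all days (adjusted p = 0.0943). In Tcrd-DTR it read 22.2, 27.3 and 33.5 CPM at day 3 and 5.66 and 10.6 CPM at day 7 (log2 −0.81 ± 0.32 SE, adjusted p = 0.0473). That call was lost without day 3 replicate 2 (adjusted p = 0.0747) or 3 (0.164) or day 7 replicate 1 (0.321), and with the replicate block (0.0616). Its change over all days in Tcrd-DTR (adjusted p = 0.0279) was lost without day 3 replicate 2 (0.0514) or 3 (0.122) or day 14 replicate 2 (0.062) or 3 (0.0575).

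In raw CPM, Fgfr4 was also highest at day 3. In wild-type it read 2.26, 4.17 and 0.871 CPM at day 1, 18.1, 17.8 and 7.82 CPM at day 3, 2.56, 5.05 and 7.13 CPM at day 7 and 6.75, 1.36 and 4.55 CPM at day 14. In Tcrd-DTR it read 1.09, 2.38 and 1.14 CPM at day 1, 9.22, 9.68 and 10.5 CPM at day 3, 1.68 and 3.19 CPM at day 7 and 2.45, 1.69 and 1.44 CPM at day 14. The rise from day 1 to day 3 was called in wild-type (log2 2.18 ± 0.50 SE, adjusted p = 0.00163) and in Tcrd-DTR (log2 2.49 ± 0.54 SE, adjusted p = 0.00107), with no overlap in either. The step from day 3 to day 7 was called in neither genotype. After division by the TMM scaling factors, wild-type day 3 overlapped days 7 and 14. Satellite cell markers summed to 316 to 459 CPM at day 1 and 695 to 752 CPM at day 3 in wild-type muscle, and their part in the rise was not tested. Fgfr1, which many cell types express, read 72.6, 46.9 and 60.5 CPM at day 1 and 63.8, 57.6 and 60.1 CPM at day 3 in wild-type. It read 32.9, 41.5 and 39.5 CPM at day 7 and 24.0, 35.1 and 31.0 CPM at day 14. Its CPM were lower on the 2 later days than on the 2 earlier ones in every wild-type library, yet no step was called. From day 3 to 7 its log2 difference was 0.11 under TMM and −0.67 (adjusted p = 0.0264) when scaled by library total, so that its direction depends on the scaling. Its change over all days in wild-type passed without day 1 replicate 2 (adjusted p = 0.0362).

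Sdc4 fell late in the course. In wild-type it read 220, 200 and 184 CPM at day 1, 326, 278 and 303 CPM at day 3, 114, 136 and 115 CPM at day 7, and 43.5, 40.9 and 50.7 CPM at day 14. No 2 of these days overlapped in raw CPM. The rise from day 1 to 3 was not called, and after division by the TMM scaling factors days 1 and 3 overlapped. The fall from day 7 to 14 was called (log2 −1.57 ± 0.20 SE, adjusted p = 7.34e-07). The fall from day 3 to 7 was smaller after TMM scaling (log2 −0.52 ± 0.19 SE, adjusted p = 0.0269) and was lost without day 3 replicate 1 (adjusted p = 0.08) or 3 (0.0756) or day 7 replicate 3 (0.069). In Tcrd-DTR it read 149, 265 and 172 CPM at day 1, 251, 235 and 314 CPM at day 3, 73.0 and 86.0 CPM at day 7, and 75.2, 60.7 and 75.7 CPM at day 14. There the fall from day 3 to 7 was called (log2 −0.76 ± 0.21 SE, adjusted p = 0.00484), and the last step (log2 −0.55 ± 0.21 SE, adjusted p = 0.0421) kept its call in 1 of 10 settings, with libraries of the 2 days overlapping in CPM. It was lost without any 1 of the 5 libraries of days 7 and 14 (adjusted p from 0.054 to 0.194) and without the filter on low counts (0.0754). The log2 difference was −0.30 with DESeq2's size factors (adjusted p = 0.247) and with DESeq2 (0.232), and −0.17 with library totals (0.54).

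Spry2 alternated. In wild-type muscle it read 14.7, 32.3 and 32.2 CPM at day 1, 18.3, 13.9 and 14.5 CPM at day 3, 41.1, 46.5 and 34.7 CPM at day 7, and 7.75, 5.72 and 8.50 CPM at day 14. It fell from day 1 to 3 (log2 −1.14 ± 0.29 SE, adjusted p = 0.00449), rose to day 7 (log2 2.19 ± 0.30 SE, adjusted p = 1.94e-07) and fell to day 14 (log2 −2.62 ± 0.32 SE, adjusted p = 4.99e-07). The first of these steps overlapped in CPM and was lost with scaling by library total (adjusted p = 0.093). In Tcrd-DTR muscle Spry2 read 31.1, 88.6 and 37.8 CPM at day 1, 23.9, 13.2 and 21.4 CPM at day 3, 13.2 and 19.3 CPM at day 7, and 8.74, 10.1 and 10.1 CPM at day 14. The fall from day 1 to 3 was called (log2 −1.57 ± 0.29 SE, adjusted p = 0.000149). The step to day 7 was not (log2 0.71 ± 0.32 SE, adjusted p = 0.0761), and the fall to day 14 (log2 −1.11 ± 0.34 SE, adjusted p = 0.011) was lost without day 7 replicate 2 (adjusted p = 0.121) or day 14 replicate 1 (0.062) and with library totals (log2 −0.75, adjusted p = 0.124). In raw CPM the day 7 libraries, above all day 3 libraries in wild-type, overlapped the day 3 libraries in Tcrd-DTR. After division by the TMM scaling factors those days did not overlap in either genotype.

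Spry1 was high at days 3 and 7 in wild-type, reading 5.41, 4.87 and 8.02 CPM at day 1, 16.5, 13.4 and 17.3 CPM at day 3, 12.1, 22.4 and 12.7 CPM at day 7 and 3.25, 7.08 and 8.20 CPM at day 14. Its fall from day 7 to 14 was called (log2 −1.49 ± 0.36 SE, adjusted p = 0.00324) and was lost without day 7 replicate 2 (adjusted p = 0.0655) or day 14 replicate 1 (0.058). Its step from day 1 to 3 was not called (log2 0.97, adjusted p = 0.052), and passed without day 1 replicate 3 (adjusted p = 0.0371). Its step from day 3 to 7 passed without day 7 replicate 3 (adjusted p = 0.0367). In Tcrd-DTR it read 6.90, 8.46 and 9.84 CPM at day 1, 15.6, 10.3 and 14.4 CPM at day 3, 8.06 and 7.38 CPM at day 7 and 10.1, 9.27 and 6.97 CPM at day 14.

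Fgf7 was higher early. In wild-type it read 7.67, 6.43 and 8.54 CPM at day 1 and 9.69, 3.36 and 5.03 CPM at day 3. It read 2.42, 2.69 and 3.17 CPM at day 7 and 1.501, 2.18 and 0.607 CPM at day 14. In raw CPM, days 1 and 3 did not overlap days 7 and 14. The TMM scaling factors were 1.38, 1.43 and 1.29 at day 3 and 0.714, 0.769 and 0.901 at day 7. After division by them days 3 and 7 overlapped. In Tcrd-DTR Fgf7 read 6.54 to 12.4 CPM at day 1 and 1.05 to 2.95 CPM at day 14. Its change over all days there (adjusted p = 0.0195) was lost without day 1 replicate 2 (adjusted p = 0.053) or 3 (0.0532) or day 14 replicate 1 (0.0678). No single step of Fgf7 was called in either genotype. Fgf2 stayed between 0.607 and 6.35 CPM in all 23 libraries and Fgf6 between 0.264 and 16.0 CPM. Both extremes of Fgf6 were Tcrd-DTR libraries of day 1, and without the one at 16.0 CPM, replicate 1, its change over all days in Tcrd-DTR passed (adjusted p = 0.0013).

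**Figure D3:**
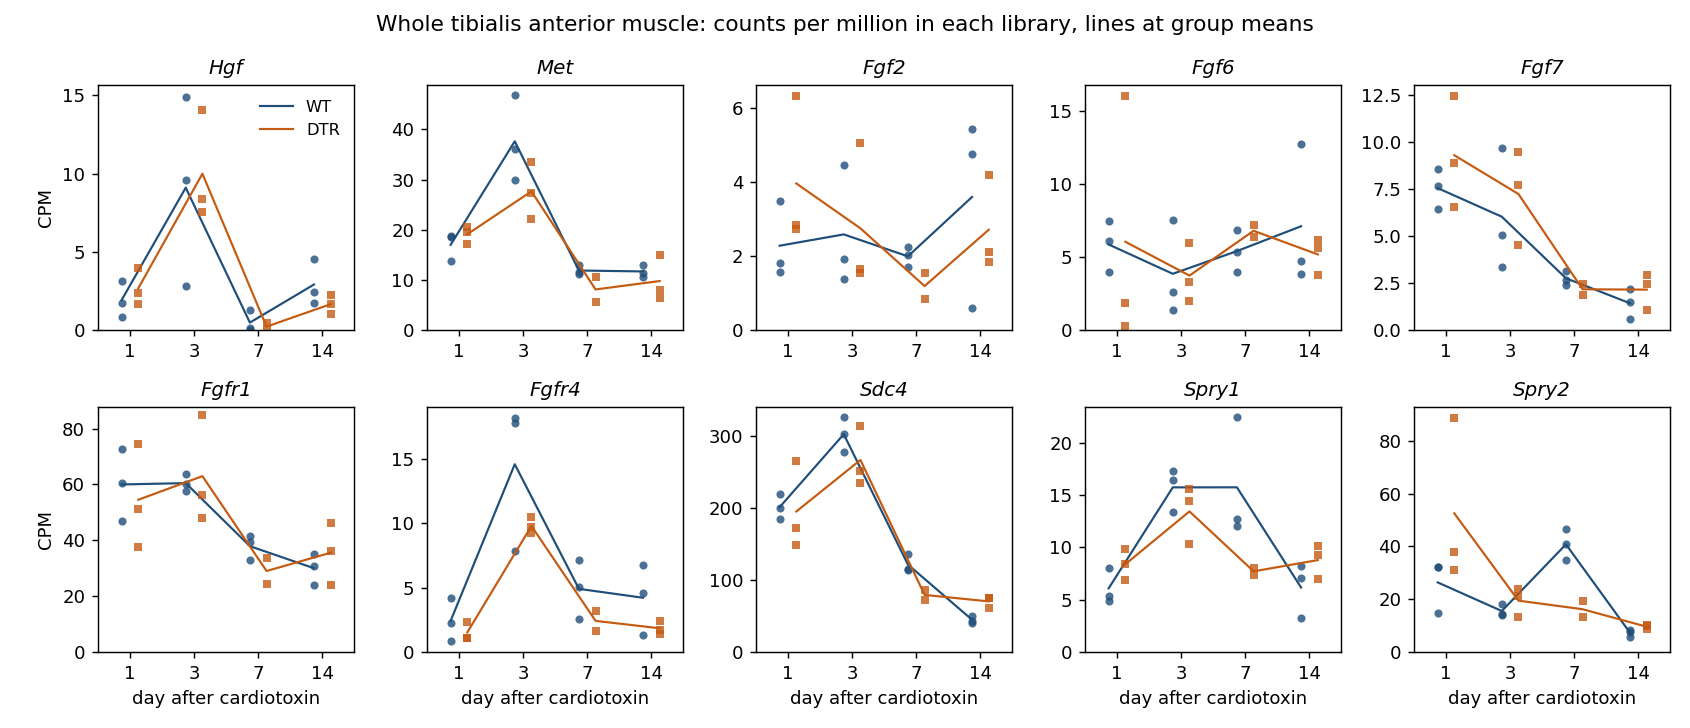
CPM of each gene in whole muscle at 1, 3, 7 and 14 days after injury; points are libraries and lines join group means of wild-type and Tcrd-DTR mice. In mean CPM, Hgf, Met and Fgfr4 are highest at day 3, while wild-type Spry2 is highest at day 7, at 34.7 to 46.5 CPM.

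Of the listed genes in wild-type muscle, heparan sulfate genes were called over all days for 17 of 22 tested, ERK feedback and targets for 10 of 18, adaptors of the receptors for 9 of 13, HGF activation for 6 of 10, other FGF ligands for 4 of 9 and other FGF receptors for 2 of 5. Over the same days 53.7% of all genes tested were called. From day 3 to 7, where 36.9% of all genes tested were called, 3262 higher and 3473 lower (1290 and 7037 with library totals), none of the 18 ERK feedback genes rose and 8 fell. The number that fell was 7 to 12 across settings. The falls with the smallest p were those of Ccnd1 (log2 −3.34), Myc (log2 −2.74) and Fos (log2 −2.62). Spry2 rose over this step. Dusp6, a phosphatase gene induced by ERK, fell (log2 −0.67, adjusted p = 0.017), a call lost without day 7 replicate 3 (adjusted p = 0.0686) or day 3 replicate 1 (0.0606) or 2 (0.0607). Spry4 read a log2 difference of −0.05 (adjusted p = 0.955). Of the 22 heparan sulfate genes, 3 rose and 9 fell, with Sdc3 at log2 −2.43, Hspg2 at log2 −1.70 and Gpc1 at log2 1.56. In the step from day 1 to 3, where 18.9% of all genes tested were called, 1750 higher and 1709 lower, 6 heparan sulfate genes rose and none fell, with 3 to 8 rising across settings. Sdc3 (log2 1.24), Sulf2 (log2 1.36) and Hs6st2 (log2 2.53) were among them, while Ier3 (log2 −2.71), Dusp5 (log2 −2.30) and Egr1 (log2 −1.79), early targets of ERK, fell.

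The genes whose log2 CPM ran most like each member over the 23 libraries are given as a description; the points share depth and library scaling. Fgfr4 ran with the cell cycle genes E2f2 (Pearson r = 0.866), Ndc80 (0.865) and Bub1b (0.856). Fgf7 ran with Utp23 (0.927), Ahnak2 (0.925) and Snai1 (0.921), and Fgfr1 with Ddr2, a collagen receptor gene (0.901), Zfp444 (0.892) and Ccn5 (0.891). Sdc4 ran with Lsm2 (0.972), Tssc4 (0.970) and Lmna (0.967), and Met with Prps2 (0.952), Fndc3a (0.923) and Smarcc1 (0.92). The nearest gene to Hgf was Arsk (0.914), to Spry2 Azin1 (0.894), to Spry1 D17H6S53E (0.813), to Fgf6 Cap2 (0.744) and to Fgf2 Dhx29 (0.609). Among the members the highest correlations were Fgf7 with Fgfr1 (0.842), Fgfr1 with Sdc4 (0.807), Fgf7 with Sdc4 (0.805) and Met with Sdc4 (0.8), and Hgf with Met reached 0.660.

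The comparison of genotypes asks what γδ T cell depletion changes at each day. No member was called at any day, where the share of all genes called was 0% at day 1, 0% at day 3, 2.01% at day 7 and 0.0767% at day 14. At an unadjusted p under 0.05, edgeR gave 778 of the 18264 genes tested at day 1 and 873 at day 3. Both are below a share of 0.05, the share expected where no gene differs. The markers of γδ T cells summed to 4.15 to 5.31 CPM in wild-type and 0 to 1.10 CPM in Tcrd-DTR muscle at day 3. They summed to 0.215 to 2.64 against 0 to 0.182 CPM at day 7, and 1.91 to 2.73 against 0.41 to 1.40 CPM at day 14. The Tcrd-DTR library at 0 at day 7 allows up to 0.314 CPM, above the lowest wild-type sum of that day. At day 1 they were not lower in Tcrd-DTR muscle, at 1.09 to 1.85 against 0.697 to 1.22 CPM. No day 1 muscle library held counts for more than 3 of the 6 markers, and the sums rest on few counts. Depletion was thus not seen in the day 1 muscle libraries, and these values cannot tell whether it was absent.

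At day 7 Spry2 came nearest to a call. The 2 Tcrd-DTR libraries read 13.2 and 19.3 CPM against 41.1, 46.5 and 34.7 CPM in wild-type, a 2.18-fold lower level with no overlap (log2 −1.12 ± 0.32 SE, adjusted p = 0.0548). The adjusted p was 0.0371 with DESeq2's size factors, 0.0377 with library totals, 0.0307 without the filter on low counts, 0.0194 with DESeq2, 0.0254 with the replicate block and 0.0421 in a fit of day 7 alone. It ranged from 0.0519 to 0.246 with 1 day 7 library left out. The result thus sits at the threshold and depends on these settings. Spry1 read 8.06 and 7.38 CPM against 12.1, 22.4 and 12.7 CPM, also without overlap (log2 −0.80 ± 0.38 SE, adjusted p = 0.223). Sdc4 read 73.0 and 86.0 CPM against 114, 136 and 115 CPM (log2 −0.39 ± 0.21 SE, adjusted p = 0.285).

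In raw CPM, 5 of the 10 members (Met, Fgf2, Spry1, Spry2 and Sdc4) had both Tcrd-DTR libraries below all 3 wild-type ones at day 7. Of all genes tested, 20.9% did and 8.3% showed the reverse. The TMM scaling factors were 0.6265 and 0.7239 in Tcrd-DTR and 0.714, 0.7688 and 0.9011 in wild-type libraries. After division by them the genotypes overlapped for Met. Neither Met (log2 −0.35, adjusted p = 0.564) nor Fgf2 (log2 −0.51, adjusted p = 0.734) was called. The median log2 difference was −0.45 over the members and −0.02 over all genes tested. Satellite cell markers were 169 to 223 CPM in Tcrd-DTR and 244 to 270 CPM in wild-type muscle at that day, and myofibre markers 143900 to 156300 against 115000 to 141500 CPM. The part of either in these differences was not tested. Of the 367 genes called at day 7, 31.6% were higher in Tcrd-DTR muscle, against 4.13% of those called with library totals, and without Tcrd-DTR replicate 2 the count of genes called was 22.

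At day 14 the order of Sdc4 was the opposite: Tcrd-DTR libraries read 75.2, 60.7 and 75.7 CPM against 43.5, 40.9 and 50.7 CPM in wild-type (log2 0.63 ± 0.20 SE, adjusted p = 0.368). Spry2 read 8.74, 10.1 and 10.1 CPM against 7.75, 5.72 and 8.50 CPM (log2 0.38 ± 0.35 SE, adjusted p = 1). In raw CPM these were the 2 members with all Tcrd-DTR libraries above all wild-type ones at day 14. Of genes tested, 8.28% were so placed. After division by the TMM scaling factors the libraries of Spry2 overlapped at that day. Fgfr4 read 2.45, 1.69 and 1.44 CPM against 6.75, 1.36 and 4.55 CPM (log2 −1.22 ± 0.58 SE, adjusted p = 0.86). At day 1 Spry2 read 31.1, 88.6 and 37.8 CPM against 14.7, 32.3 and 32.2 CPM (log2 0.77 ± 0.28 SE, adjusted p = 0.998). No member was called in the test of genotype by day, where 0.613% of genes were, the lowest being Spry2 (adjusted p = 0.0715) and Sdc4 (adjusted p = 0.152). Without Tcrd-DTR day 1 replicate 1, Spry2 passed that test (adjusted p = 0.0399).

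**Figure D4:**
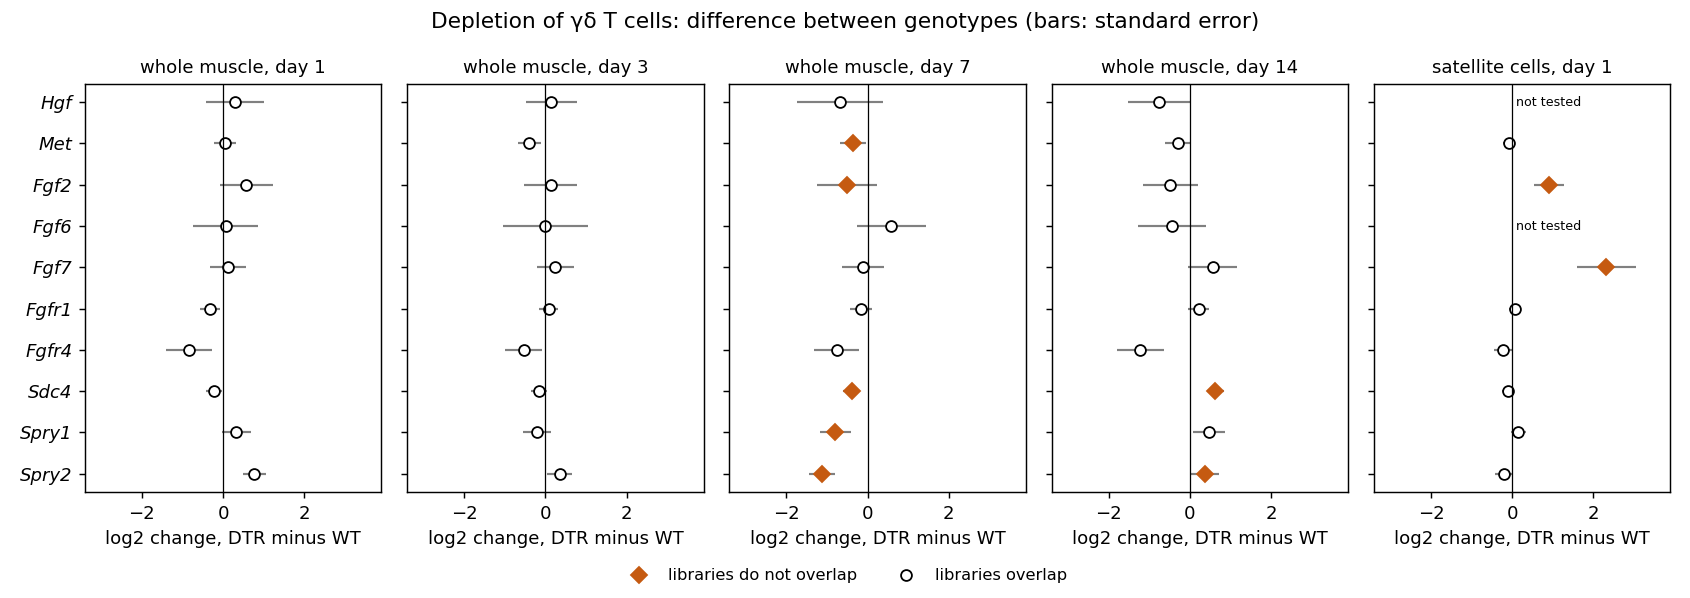
Log2 difference between Tcrd-DTR and wild-type mice for each gene in whole muscle at the 4 days and in day 1 satellite cells, with SE bars; filled diamonds mark groups whose libraries do not overlap in CPM and open circles those that do. Spry2 is at −1.12 at day 7, and no gene passed the test at any point.

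Among the listed genes none was called at days 1, 3 and 14 in the comparison of genotypes. At day 7, where 2.01% of all genes tested were called, 2 were: 1 of 18 ERK feedback genes and 1 of 22 heparan sulfate genes. Fos was higher in Tcrd-DTR muscle (7.82 against 3.16 CPM, libraries overlapping, log2 1.52, adjusted p = 0.0343). So was Ext1, which encodes an enzyme that builds heparan sulfate chains (18.5 against 8.57 CPM, log2 1.32, adjusted p = 0.0379). Neither call was stable: Fos lost its call in 6 of 11 settings and Ext1 in 7 of 11. Without Tcrd-DTR replicate 2 the adjusted p was 0.516 for Fos and 0.316 for Ext1, and without Tcrd-DTR replicate 1 it was 0.0513 for Ext1. Leaving out wild-type replicate 2 (adjusted p = 0.0983) or 3 (0.114) ended the call of Fos, and wild-type replicate 1 (0.0824) or 3 (0.142) that of Ext1. Both were also lost with library totals (0.0752 for Fos, 0.0892 for Ext1), with the replicate block within day (0.152 and 0.117) and in a fit of day 7 alone (0.247 and 0.174). Plau read 1.52 against 4.81 CPM without overlap (log2 −1.46 ± 0.45 SE, adjusted p = 0.0687) and Etv4 0.640 against 2.45 CPM (log2 −1.67 ± 0.67 SE, adjusted p = 0.154). Dusp6 (log2 0.21), Etv5 (log2 0.05) and Spry4 (log2 −0.80) were not called.

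In satellite cells at day 1, the levels of the receptors overlapped between the genotypes. No member of the 8 tested was called, where 0% of genes tested were. At an unadjusted p under 0.05, edgeR gave 719 of the 12081 genes tested, slightly above a share of 0.05. Met read 162, 148 and 141 CPM in Tcrd-DTR against 173, 172 and 128 CPM in wild-type cells (log2 −0.08 ± 0.14 SE). Fgfr1 read 706, 567 and 654 CPM against 557, 594 and 683 CPM (log2 0.06 ± 0.13 SE), and Fgfr4 115, 87.0 and 86.8 CPM against 90.7, 88.7 and 156 CPM (log2 −0.23 ± 0.22 SE). None of these 3 differences exceeded its SE by much, the largest being that of Fgfr4. Sdc4 read 3044, 3333 and 3553 CPM (log2 −0.11 ± 0.13 SE), Spry1 38.1, 56.2 and 45.3 CPM (log2 0.15 ± 0.18 SE) and Spry2 78.3, 93.7 and 96.8 CPM (log2 −0.19 ± 0.22 SE).

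A pair of ligands did not overlap between genotypes. Fgf7 read 7.02, 2.73 and 3.98 CPM in Tcrd-DTR cells, 40, 15 and 24 counts, against 1.46, 0 and 1.195 CPM, 8, 0 and 6 counts, in wild-type cells (log2 2.32 ± 0.72 SE, adjusted p = 0.794). The wild-type library at 0 allows up to 0.573 CPM. Fgf2 read 5.26, 8.02 and 5.81 CPM against 3.84, 3.06 and 3.19 CPM (log2 0.91 ± 0.36 SE, adjusted p = 0.818). Of all genes tested, 6.35% had every Tcrd-DTR library above every wild-type one. Markers of fibro-adipogenic progenitors summed to 5921 to 8270 CPM in these Tcrd-DTR cells and 5041 to 6352 CPM in wild-type, with Dcn at 3161 to 5054 against 2274 to 3136 CPM, and their part in the levels of Fgf7 and Fgf2 was not tested. The highest Fgf7 library, Tcrd-DTR replicate 1, is the one with 2797 CPM of myofibre markers. It also held 195 CPM of Schwann cell markers, against 0.498 to 10.8 CPM in the other sorted libraries, and the lowest sum of fibro-adipogenic markers of the Tcrd-DTR cells, 5921 CPM. Without that library the log2 difference of Fgf7 was 1.91 (adjusted p = 0.956). The part of these in its Fgf7 level was not tested. Hgf (1.40, 1.46 and 1.66 CPM against 1.10, 2.48 and 0.398 CPM) and Fgf6 (8, 0 and 0 counts against 1, 1 and 0) were too low to test. The markers of γδ T cells summed to 0 to 0.498 CPM in Tcrd-DTR and 1.195 to 3.06 CPM in wild-type sorted cells. No sorted library held a count of Trdv4, Trgc1, Trgc2 or Trgv6, and only wild-type replicate 2 held Trgc4. These sums thus rest on Trdc, with Trgc4 in that 1 library.

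Recombinant IL-17A was given to wild-type mice to ask what the cytokine itself changes at day 7. Fgfr4 was the 1 member called of 9 tested, and it was higher; 34.1% of the 12896 genes tested were called, 18.1% higher. It read 9.16 and 8.96 CPM (59 and 43 counts) after rIL-17A against 2.13 and 1.14 CPM (17 and 8 counts) after PBS, a 4.96-fold difference in 2 of 2 libraries (log2 2.31 ± 0.58 SE, adjusted p = 0.00911). Without rIL-17A replicate 1 the adjusted p was 0.0937, and leaving out a library here leaves 1 in its arm, which is then assumed to vary like the other group. Satellite cell markers summed to 259 to 323 CPM after rIL-17A and 183 to 196 CPM after PBS, endothelial markers to 295 to 319 against 155 to 172 CPM, and macrophage markers to 573 to 705 against 1440 to 1968 CPM. Their part in the difference of Fgfr4 was not tested.

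The other members were not called. Sdc4 read 66.0 and 73.8 CPM after rIL-17A and 80.0 and 107 CPM after PBS (log2 −0.58 ± 0.23 SE, adjusted p = 0.0713), and passed without PBS replicate 1 (adjusted p = 0.00522). Spry2 read 13.98 and 16.3 CPM against 17.9 and 19.4 CPM (log2 −0.46 ± 0.32 SE, adjusted p = 0.285). Both were lower in 2 of 2 libraries without overlap, where 28.4% of genes tested were so placed. Fgf2 read 0.621 and 2.08 CPM against 4.77 and 2.00 CPM (log2 −1.51 ± 0.86 SE, adjusted p = 0.19), passed without PBS replicate 3 (adjusted p = 0.0478), and the antisense Nudt6 held 81 counts after rIL-17A and 23 after PBS. Fgf7 read 0.311 and 2.29 CPM against 2.13 and 3.72 CPM (log2 −1.40 ± 0.94 SE, adjusted p = 0.268). Fgfr1 read 31.8 and 65.5 CPM against 35.1 and 27.2 CPM (log2 0.47 ± 0.30 SE, adjusted p = 0.247), and Met 11.3 and 19.6 CPM against 13.3 and 10.01 CPM (log2 0.24 ± 0.37 SE, adjusted p = 0.65). Spry1 read 3.57 and 10.8 CPM against 5.40 and 8.01 CPM (adjusted p = 0.914), and Fgf6 4.04 and 3.96 CPM against 2.51 and 4.15 CPM (adjusted p = 0.908). Hgf, at 0 and 0.625 CPM against 0.628 and 0 CPM, was not tested.

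**Figure D5:**
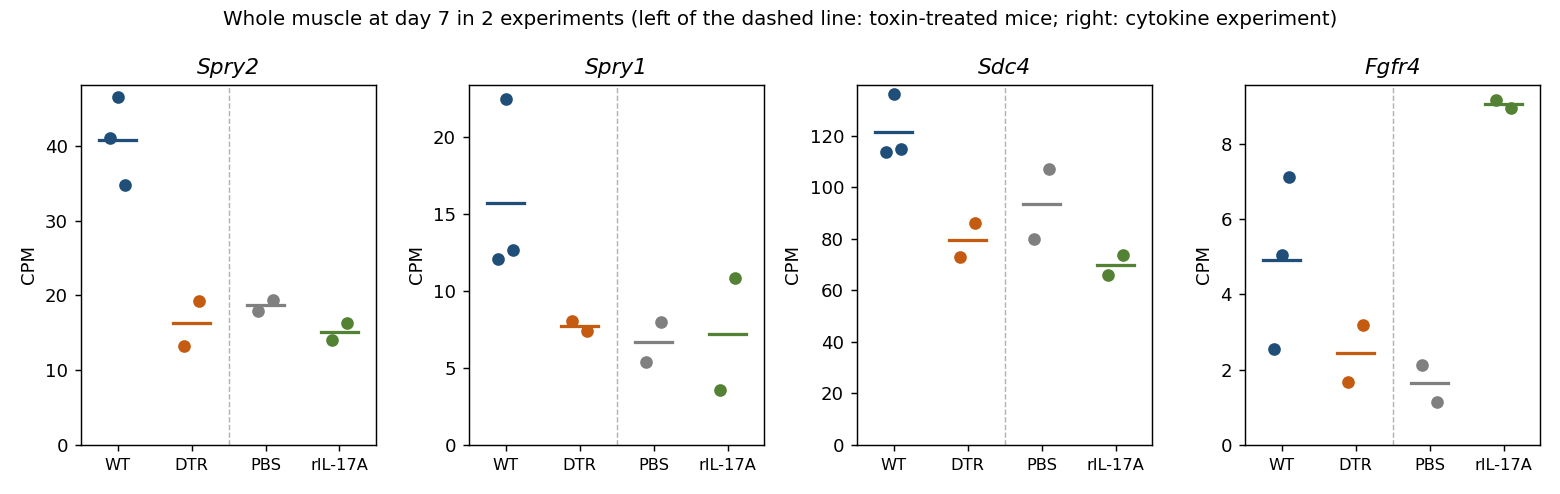
CPM of Spry2, Spry1, Sdc4 and Fgfr4 in the 4 whole-muscle groups of day 7: wild-type and Tcrd-DTR after diphtheria toxin, and wild-type after PBS or rIL-17A without it; points are libraries and short lines group means. Fgfr4 is at 9.16 and 8.96 CPM after rIL-17A and at 2.13 and 1.14 CPM after PBS.

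Of the listed genes after rIL-17A, where 34.1% of all genes tested were called and 18.1% were higher, 5 of 12 adaptors of the receptors were higher and none lower, led by Crkl (log2 1.75, adjusted p = 0.000901), Cblb (log2 2.11, adjusted p = 0.00098) and Ptpn11 (log2 1.25, adjusted p = 0.0063). Of 21 heparan sulfate genes 5 were higher and 3 lower, with the perlecan gene Hspg2 at 375 against 21.6 CPM (log2 3.94, adjusted p = 7.9e-06) and Ext1 at 6.03 against 21.3 CPM (log2 −1.99, adjusted p = 0.00499). Of 5 genes of HGF activation 1 was higher and 2 were lower: Plau at log2 2.31 (adjusted p = 0.00424), lost without rIL-17A replicate 3 (adjusted p = 0.0733), Plat at log2 −1.38 (adjusted p = 0.00793), lost without the same library (adjusted p = 0.067), and Plaur at log2 −2.06 (adjusted p = 0.0189), lost without rIL-17A replicate 1 (adjusted p = 0.151). Of 14 ERK feedback genes 1 was higher and 2 were lower, Fos at 4.84 against 20.6 CPM (log2 −2.28, adjusted p = 0.00207) among them, while Dusp6 (log2 −0.02), Spry4 (log2 −0.33) and Il17rd (log2 1.39, adjusted p = 0.0848) were not called.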

How the data were processed

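PolyA RNA was sequenced from 2 ng of whole-muscle RNA or 1000 sorted cells a library. The authors deposited raw counts per gene symbol for all libraries in 1 table. Per the submitters' processing notes, the tools include STAR 2.7.3a, featureCounts and Subread 2.0.0, with mm10 as the build. Not given in the sources used here were the annotation, the strand setting and the treatment of PCR copies or of reads with several alignments. Intervals and floors (3 counts for a library at 0) therefore cover counting error only. No replicates were copies: chi-square over its degrees of freedom was at least 3.88 for any pair within a group.

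From these counts, differences were tested in edgeR 4.0.16 by quasi-likelihood (R 4.3.3, robust fit, TMM, filterByExpr with a minimum count of 10 and total of 15), adjusted over all genes tested by Benjamini-Hochberg. The time course was fitted over 23 libraries, the cytokine experiment over 4, sorted cells over 6, and sorted cells with day 1 muscle over 12. Settings varied were the scaling, the filter, DESeq2 1.42.0, a replicate block, single days and each library left out. Scripts were tested on simulated counts. CPM were computed from the totals, and CPM per kb from GENCODE exon lengths. Likeness is Pearson's r of log2 CPM (prior count 2) over genes with a mean of at least 5 CPM, leaving out predicted genes.

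All members were named in each comparison, and of each pathway list up to 3 called genes with the smallest p plus Fgfr2, Fgfr3, Spry4, Dusp6, Etv4, Etv5, Il17rd, Plau and Sdc3; not all are printed. Members and lists were chosen with earlier results of these data known. Vγ6 cell libraries entered no comparison.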

Additional observations from a re-analysis of the deposited data

Results flagged for a closer look

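The difference between genotypes in Spry2 and in Sdc4 changed sign between days. In raw CPM every Tcrd-DTR library was below every wild-type library at day 7 and above every one at day 14. After division by the TMM scaling factors the genotypes overlapped for Spry2 at day 14. The test of genotype by day gave an adjusted p of 0.0715 for Spry2 and 0.152 for Sdc4, so neither passed.

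In the sorted Vγ6 T cells, which entered no comparison, 4 members were above the limit that a count of 0 allows in every library of at least 1 group. Sdc4 averaged 417 CPM in cells of the colon and 67.9 CPM in cells of injured muscle at day 3. Spry1 averaged 92.5 and 11.4 CPM and Spry2 31.5 and 8.05 CPM in the same order. Fgf2 averaged 1.42 CPM in the muscle cells.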

How the results depend on the processing

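Of 46 calls of members, 32 held under every setting tried, and 21 results that were not called passed under at least 1. For the comparison of genotypes at day 7 the count of members called, 0, became 1 (Spry2) with DESeq2's size factors, library totals, no filter, DESeq2, the replicate block within day and day 7 alone, and was 0 with any library left out. For genotype by day, 0 became 1 with DESeq2's size factors, library totals, no filter and the replicate block, and 2 with DESeq2, with a range of 0 to 1 when a library was left out. The wild-type step from day 1 to 3 went from 2 to 5 members with library totals and with DESeq2, the step from day 3 to 7 from 4 to 7 in wild-type and from 3 to 6 in Tcrd-DTR with library totals. The Tcrd-DTR step from day 7 to 14 went from 2 to 1 with library totals and without the filter, and to 0 to 1 with a library left out. Leaving out a library gave 2 to 4 members in the wild-type step from day 7 to 14 and 0 to 2 for rIL-17A. The signs of Fgfr1 in wild-type (log2 −0.67) and of Grb2 (log2 −0.19) and Etv5 (log2 −0.82) in Tcrd-DTR from day 3 to 7 reversed with library totals. The cause of these changes was not tested. The labels do not say that replicate numbers pair libraries, and by the rule applied the numbers were not taken as pairs (correlations of same-numbered libraries from −0.28 to 0.37). For rIL-17A, a crossed replicate block, chosen after seeing the data, gave 2 members and 5151 genes against 4403.

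Counts of all genes called moved as well: at day 7 from 367 to between 22 (without Tcrd-DTR replicate 2) and 729 (without wild-type replicate 1), to 92 in day 7 alone and to 994 with DESeq2. At day 14 the 14 genes became 2 to 47 with a library left out and up to 80 otherwise, and for genotype by day the 112 became 21 to 236 and 85 to 582. In sorted cells 0 became 101 without the filter. Among genes called, the share higher at the later day moved with library totals from 50.6% to 80.8% in the wild-type step from day 1 to 3 and from 48.4% to 15.5% from day 3 to 7. Hgf, Fgf2, Fgf6 and Fgf7 have few counts, which limits what could be detected in them.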

Other observations

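The wild-type muscle of the toxin experiment and the PBS-treated muscle of the cytokine experiment, both of day 7, came from separate experiments and were not compared by a test. Spry2 read 41.1, 46.5 and 34.7 CPM in the first and 17.9 and 19.4 CPM in the second, where the toxin-treated Tcrd-DTR muscle read 13.2 and 19.3 CPM. Spry1 read 12.1, 22.4 and 12.7 CPM in the first and 5.40 and 8.01 CPM in the second.

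Fgf2 and its antisense neighbour Nudt6 held unlike counts in different groups. Summed over libraries, Nudt6 held 106 counts and Fgf2 37 in wild-type muscle at day 1, and 34 and 53 in wild-type satellite cells. In satellite cells of Tcrd-DTR mice the counts were 39 for Nudt6 and 109 for Fgf2.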
